A study of Mus musculus with 3 samples.

Results

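Expression of 10 genes that encode the blood-borne and lipoprotein products of the visceral endoderm was examined in embryonic stem (ES) cells of the mouse, which are pluripotent, during overexpression of the zinc finger transcription factor Gata6. The genes were Ttr, Afp, Apoa1, Apoa4, Apob, Apoc2, Apoe, Apom, Mttp and Selenop, that is 10 of the 18193 genes with a probe set of their own on the array. They are taken by name, with no threshold on their signal, and every probe set that the platform annotation assigns to only that gene was taken, which gave 24 of 34945 probe sets. Per the design text, the ES cells had been engineered so that Gata6 overexpression responds to dex (read as the glucocorticoid dexamethasone), and GEO's labels name a control at day 0 and samples of day 1 and of day 2, with 1 array for each. The sources used here give neither the ES cell line nor the dose of dex, and do not say whether the control carried the Gata6 construct. With no replicates, no test between days could be made, every ratio sets 2 single arrays side by side, and the precision is limited by their number.

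The visceral endoderm is the outer, absorptive and secretory layer of the early mouse embryo. Before the liver forms, it takes up maternal nutrients and releases carriers into the embryonic fluids, many of which the liver later secretes into blood plasma. Apolipoproteins are the protein part of lipoproteins, the particles that move fat and cholesterol. Apolipoprotein B (Apob) can only be loaded with lipid in the endoplasmic reticulum with the help of the microsomal triglyceride transfer protein Mttp, which itself stays in the cell and is not a plasma protein. Transthyretin (Ttr) carries thyroid hormone and the retinol-binding protein, alpha-fetoprotein (Afp) is the fetal relative of albumin, and Selenop delivers selenium to other cells.

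The arrays carried the marks of the experiment. Gata6 read 109.6 on day 0, 5573.2 on day 1 and 6071.2 on day 2 on its brightest probe set. Over its 3 probe sets, the log2 ratio of day 2 against day 0 ranged between 0.93 and 5.79. The ES cell factors Pou5f1 (4049.7, 1493.1 and 828.7) and Nanog (14627.6, 3441.4 and 1841.8) were brightest on day 0. Median signals were 84.2, 81.8 and 86.4 on the 3 days. Low values were judged against a floor of 54.0 (the 40th percentile of the scaled signals), under which they were not ranked, and against a background line of 70.2. The line is the 95th percentile of 80 probe sets of olfactory and vomeronasal receptors, which ES cells are not known to use. To be called higher or lower, a gene had to reach a 2-fold difference with its brighter signal over the floor. A fold is written as at least N-fold where the dimmer signal lay under the background line. A signal under the floor entered the fold at the floor. Such a bound holds for this floor and is lower with a higher one.

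The 10 genes fell into 3 kinds. Ttr, Selenop, Mttp and Apom were dim on day 0 and clearly above background on day 2. Apoe was bright on all 3 arrays and differed little between them. Afp, Apoa1, Apob and Apoc2 stayed at or under the background line on every array with every probe set, and Apoa4 passed the line on day 2 with 1 of its 2 probe sets. Of the 10 genes, 4 were thus at background throughout, where 28.3% of all 18193 genes were. In day 2 against day 0, 4 of the 9 genes that could be compared were at least 2-fold higher and 0 lower, where 11.0% of all 13865 genes compared were higher and 10.1% lower. The median log2 ratio over all 10, with Afp at 0 because it lay under the floor on both arrays, was 0.47, against -0.05 over all genes compared. This median falls between the ratios of Apob (0.28) and Apoa4 (0.66), which rest on signals near the floor. It therefore does not show a shift of the whole group.

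**Figure D1:**
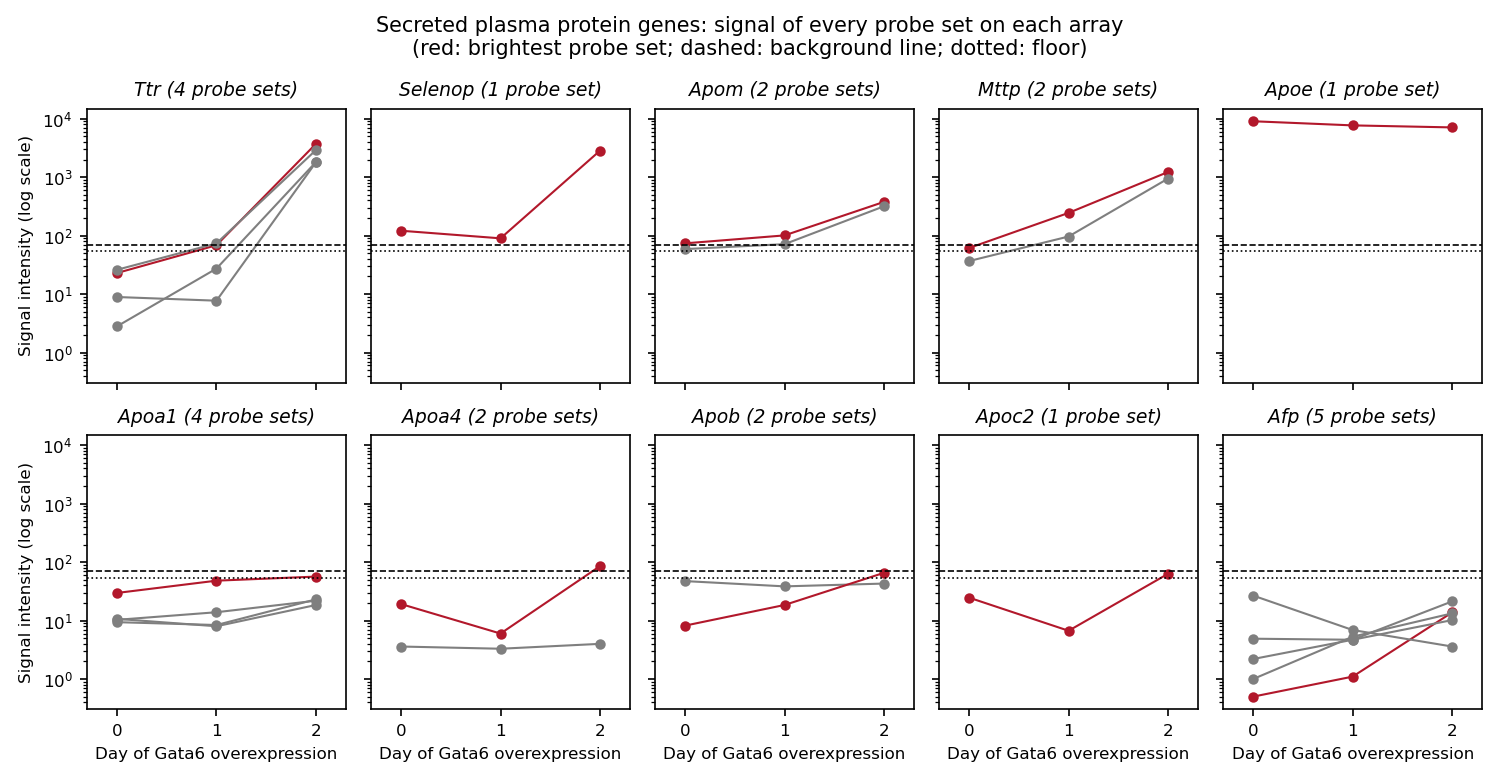
Signal intensity (log scale) of all 24 probe sets of the 10 genes on the arrays of day 0, day 1 and day 2, 1 array per day. Each line is a probe set, red being the brightest of its gene (an arbitrary one for Afp, which lies under the floor on all arrays), the dashed line is the background line (70.2) and the dotted line the floor (54.0). The 4 probe sets of Ttr reach 1801.8 to 3728.9 on day 2, Apoe stays between 7095.4 and 9047.4, and the probe sets of Afp stay under 27.

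Ttr had 4 probe sets. The brightest read 22.9 on day 0, 68.5 on day 1 and 3728.9 on day 2. The others read 8.9, 7.7 and 1801.8, then 2.8, 27.3 and 1816.7, and 26.0, 73.6 and 2914.2 on the same days. All 4 were under the floor on day 0 and far above the background line on day 2. On day 1, 2 of them lay above the floor and 1 of these, at 73.6, just above the line. Day 2 was at least 69.0-fold above day 0 on the brightest probe set and at least 33.4-fold to 53.9-fold on the others. Of the 4, 3 carry the suffix _x_at or _s_at, which marks probes that can match other transcripts. The specific one, at 8.9, 7.7 and 1801.8, was also far brighter on day 2. Unlike the others, it was not brighter on day 1 than on day 0. Among the 13865 genes compared, the log2 ratio of Ttr, a lower bound of 6.11, ranked 15th highest for day 2 against day 0, and among 13468 genes that of at least 5.77 ranked 2nd for day 2 against day 1.

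Selenop, whose protein is named for its selenocysteine residues, had a single probe set, which read 121.2 on day 0, 89.8 on day 1 and 2843 on day 2. It was above the background line on each array, slightly dimmer on day 1 than on day 0, and far brighter on day 2. Day 2 was 23.4-fold above day 0 and 31.6-fold above day 1, and the ratio to day 1 ranked 3rd highest. Unlike the bounds for Ttr, both of these folds are between signals above the background line. The day 1 signal of 89.8 was nonetheless under 107.1, the 99th percentile of the receptor probe sets. Their highest signal on that array was 150.8. The fold over day 1 thus rests on a signal near background.

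Mttp, the lipid loader of Apob, was the member that differed earliest. Its 2 probe sets read 61.3, 244.7 and 1226.5, and 36.7, 96.5 and 947.1, on day 0, day 1 and day 2. Both were under the background line on day 0, above it on day 1 and highest on day 2. The 96.5 of the dimmer probe set on day 1 was under 107.1, the 99th percentile of the receptor probe sets. Day 1 was at least 3.99-fold above day 0 on the brighter probe set and at least 1.79-fold on the other, so the 2-fold difference at day 1 rests on the brighter probe set. With the floor raised to the 60th percentile, 146, its log2 ratio on day 1 was 0.75 and the difference no longer reached 2-fold. Day 2 was at least 20.0-fold and at least 17.5-fold above day 0, and 5.01-fold and 9.81-fold above day 1. With the floor at the background line, the day 2 against day 0 log2 ratio of the brighter probe set was 4.13. Mttp was the only member at least 2-fold higher on day 1, 1 of the 5 that could be compared, against 6.0% of 13602 genes higher and 6.58% lower.

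Apom is a lipocalin of high-density lipoprotein that carries the lipid signal sphingosine-1-phosphate. Its probe sets read 73.7, 100.8 and 377.8, and 58.8, 71.4 and 317.8, on the 3 days. Both stayed near the background line on day 0 and day 1 and were clearly above it on day 2. Day 2 was 5.12-fold above day 0 on the brighter probe set and at least 5.40-fold on the other, and 3.75-fold and 4.45-fold above day 1. The day 1 log2 ratios of 0.45 and 0.28 were under the 2-fold threshold.

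The order in time thus differed among the 4 genes. Mttp was higher on day 1 and higher again on day 2, whereas Ttr, Selenop and Apom reached no 2-fold difference between day 0 and day 1. For Ttr this rests on the floor, since the day 0 signals lay under it: with a floor at the 25th percentile, 26.1, its day 1 log2 ratio was 1.39. That ratio is from its brightest probe set, an _x_at one. The specific probe set of Ttr read 8.9 on day 0 and 7.7 on day 1, under that lower floor too. The difference between these time courses has no test. In day 2 against day 1, the same 4 of 9 members compared were higher and 0 lower, where 5.61% of 13468 genes were higher and 3.67% lower. Comparisons that share an array are not independent of each other: day 0 enters 2 of the 3, as do day 1 and day 2.

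Genes measured by more than 1 probe set gave a measure of error. Taken from the disagreement of 2 probe sets of a gene, the SD of a log2 ratio was 0.57 at signals under 200, 0.40 from 200 to 1000, 0.22 from 1000 to 5000 and 0.13 above 5000. The spread between cultures is not part of it. The day 2 against day 0 ratios of Ttr, Selenop, Mttp and Apom, log2 6.11, 4.55, 4.32 and 2.36, exceeded the largest of these values, whereas the day 1 ratios of Ttr (0.34), Apom (0.45) and Selenop (-0.43) did not.

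**Figure D2:**
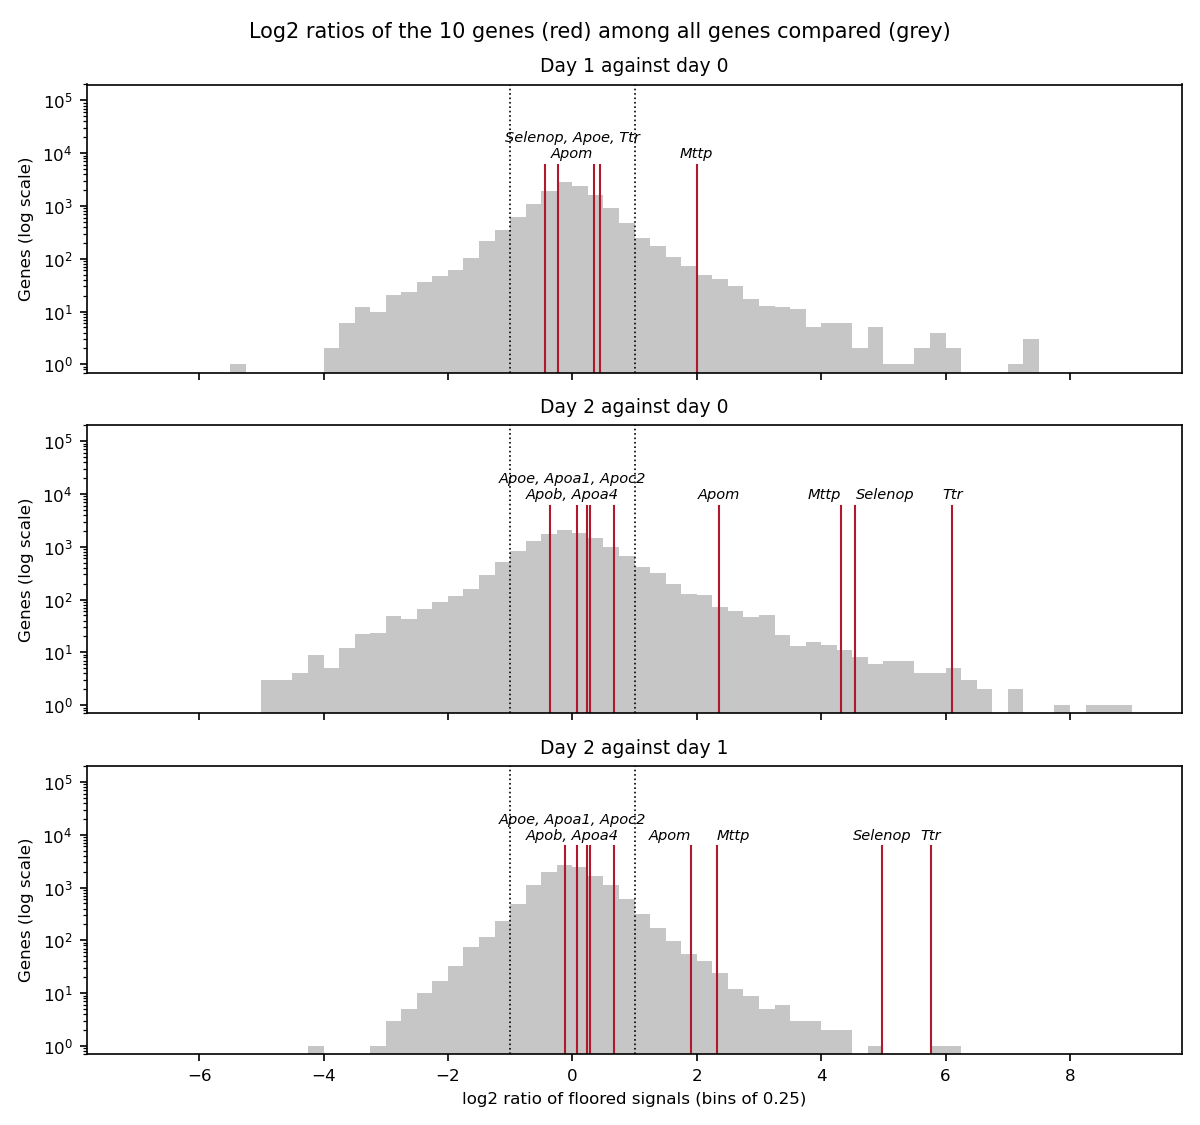
Histograms of log2 ratios of floored signals over all genes compared (grey; vertical axis on a log scale), with the members that could be compared in red, for each pair of days. Dotted lines mark 2-fold. Among the members, Mttp stands alone beyond 2-fold on day 1 (2.00), and Apom, Mttp, Selenop and Ttr lie beyond it in both comparisons of day 2.

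Apoe, the ligand by which lipoproteins are taken up through receptors of the LDL receptor family, read 9047.4 on day 0, 7683.7 on day 1 and 7095.4 on day 2 on its single probe set. It was bright on each array, and its log2 ratios of -0.24 on day 1 and -0.35 on day 2 against day 0 were well under 2-fold, though wider than the probe set SD of 0.13 at such signals. The control ES cells thus already had a strong Apoe signal. Macrophages also make Apoe. Of 10 macrophage markers, 6 lay above the background line on at least 1 array, where 28.3% of all genes stayed at or under it throughout. The summed signal of the 10 was 3476.2, 2836.4 and 1597.3 on the 3 days, most of it Laptm5 and Cd68. Csf1r also lay above the line on each array, at 142.7, 129.7 and 169.2. Ptprc, the common leukocyte antigen, lay under the floor on each array at 18.3, 1.5 and 10.8. The part of macrophages in the Apoe signal was not tested.

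Among the genes at background, Apob, the structural protein of very-low-density lipoprotein and its products, had 2 probe sets. One read 8.2, 18.5 and 65.7 on day 0, day 1 and day 2 and the other 47.4, 38.5 and 43.0. Only the first passed the floor, on day 2, and it stayed under the line of 70.2. Apoc2, the cofactor of lipoprotein lipase, read 24.7, 6.7 and 63.3, again above the floor only on day 2. The 4 probe sets of Apoa1, the main protein of high-density lipoprotein, lay between 8.0 and 56.6, with the brightest at 29.7, 48.2 and 56.6. The 5 probe sets of Afp, a classical visceral endoderm marker, lay between 0.5 and 26.8, and none reached the floor on any array. Signals this low are not ranked between days, and they do not show that the genes were silent: the limit is what this array could separate from background.

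Apoa4, an apolipoprotein made in quantity by the intestine, was split. One probe set read 3.6, 3.3 and 4.0 and the other, an _x_at probe set, 19.2, 6.0 and 85.5 on day 0, day 1 and day 2. The day 2 value lay above the line of 70.2 but under 107.1, the 99th percentile of the receptors. Day 2 was at least 1.58-fold above day 0, under the threshold. With the floor at the background line, the log2 ratio was 0.28.

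Several members lie in gene clusters, which allows each to be set beside its neighbours. On chromosome 9 the order is Apoa1, Apoc3, Apoa4 and Apoa5. On day 2 these read 56.6, 83.1, 85.5 and 69.5, all within the range of the receptor probe sets, whose highest signal was 96.1 on that array. The flanking gene Sik3, a protein kinase, read 666.7, 480.2 and 294.6 on the 3 days and was lower on day 2, while Zpr1 on the other side read 2627.5, 2581.6 and 1803.5. On chromosome 7 the order is Apoc2, Apoc4, Apoc1 and Apoe. There Apoc1 read 958.4, 1381.2 and 1232.4 and Apoe was bright, whereas Apoc2 and Apoc4 (19.3, 53.4 and 9.8) stayed under the background line. The cluster was thus mixed on each array, with both bright genes next to each other.

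**Figure D3:**
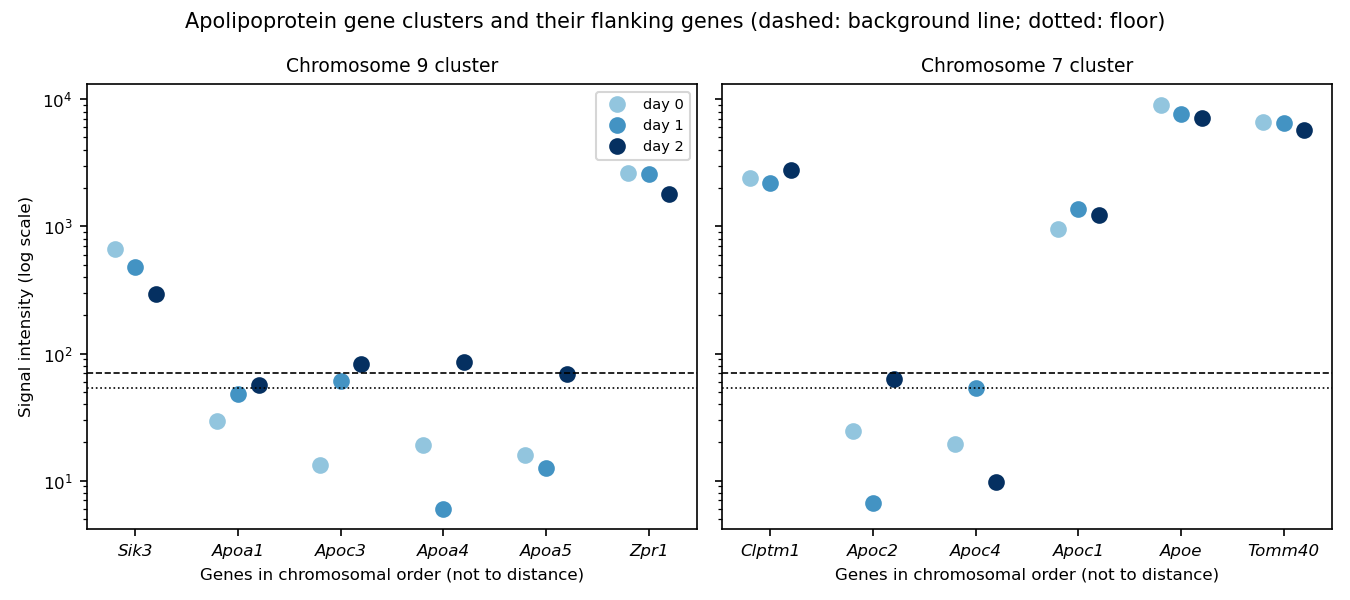
Signal intensity (log scale) of the brightest probe set of the apolipoprotein genes of chromosome 9 and chromosome 7, in chromosomal order with 1 flanking gene on each side, on day 0 (light), day 1 (mid) and day 2 (dark). The dashed line is the background line and the dotted line the floor. The chromosome 9 genes lie between 56.6 and 85.5 on day 2, while Apoc1 and Apoe on chromosome 7 are at or above 958.4 on every day.

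Up to 3 protein-coding neighbours were taken on each side of every member, and 41 of them, other than members, were on the array. Of these, 4 were at least 2-fold higher (Ghr, Fbxo4, Sidt2 and Rassf6) and 4 lower (Sik3, Bcam, Rnf125 and Dapp1) on day 2 against day 0, where all genes had 11.0% higher and 10.1% lower. Near Selenop, the growth hormone receptor gene Ghr read 62.3, 252.7 and 684.6 and the F-box gene Fbxo4 64.3, 99.7 and 182. Bcam, a laminin receptor near Apoe, read 2194.3, 585.5 and 130.1. Rassf6, near Afp, read 31.5, 68.3 and 143.2 while Afp stayed under the floor, and Rnf125, near Ttr, read 1201.3, 133.7 and 141.2. These neighbours are named for their differences after the values were seen.

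The promoters of the members were read next, since 4 of the genes were higher on day 2. The sequences are from RefSeq, build GRCm38.p6, and run from 250 bases before to 50 after each annotated start. Of the 9 members other than Ttr, whose promoter is not analysed here, all had an entry, and Apoe and Selenop had 3 starts each. Both strands were searched for words known for endoderm factors: AGATAA or AGATAG, and TGATAA or TGATAG, for GATA factors, GTTAAT for a single arm of an HNF1 site, CAAAGNNCA for HNF4, and TGTTTAC or TGTTTGC or TATTTAC for FOXA factors. These occur in 29.8%, 7.10%, 6.36% and 11.2% of all 32851 promoters of that length. Shown are the 3 genes that were higher on day 2 and, for contrast, 2 that stayed at background. Capitals mark the matched words, and in none of the 5 do words overlap.
Mttp: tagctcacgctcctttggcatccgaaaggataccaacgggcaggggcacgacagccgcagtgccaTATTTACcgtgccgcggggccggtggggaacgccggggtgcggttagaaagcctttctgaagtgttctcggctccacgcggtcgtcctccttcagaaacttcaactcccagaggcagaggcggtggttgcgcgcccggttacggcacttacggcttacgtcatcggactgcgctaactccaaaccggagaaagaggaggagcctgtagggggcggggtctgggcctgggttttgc
Apom: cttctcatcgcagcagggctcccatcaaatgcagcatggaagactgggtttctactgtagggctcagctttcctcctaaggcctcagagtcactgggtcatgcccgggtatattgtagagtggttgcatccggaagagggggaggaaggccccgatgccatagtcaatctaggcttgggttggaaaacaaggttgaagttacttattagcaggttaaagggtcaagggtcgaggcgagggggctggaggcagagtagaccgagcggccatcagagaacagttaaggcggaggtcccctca
Selenop: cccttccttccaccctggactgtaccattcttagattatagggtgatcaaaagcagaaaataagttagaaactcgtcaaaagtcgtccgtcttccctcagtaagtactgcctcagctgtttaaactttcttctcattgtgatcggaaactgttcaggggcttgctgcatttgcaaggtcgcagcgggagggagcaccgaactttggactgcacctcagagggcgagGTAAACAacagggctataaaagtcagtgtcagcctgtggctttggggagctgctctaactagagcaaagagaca
Afp: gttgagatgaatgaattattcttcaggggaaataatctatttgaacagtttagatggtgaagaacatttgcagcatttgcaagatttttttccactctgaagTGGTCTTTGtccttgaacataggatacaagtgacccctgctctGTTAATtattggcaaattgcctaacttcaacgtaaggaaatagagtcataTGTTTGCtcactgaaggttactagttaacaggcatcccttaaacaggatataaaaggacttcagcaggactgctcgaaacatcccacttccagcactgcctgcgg
Apoc2: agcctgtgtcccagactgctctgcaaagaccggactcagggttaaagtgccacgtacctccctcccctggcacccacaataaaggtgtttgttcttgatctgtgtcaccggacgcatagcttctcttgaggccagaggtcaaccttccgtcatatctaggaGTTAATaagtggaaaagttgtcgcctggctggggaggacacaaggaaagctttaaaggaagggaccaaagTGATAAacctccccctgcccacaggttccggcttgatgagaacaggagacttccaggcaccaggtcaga
The sequence of Mttp is chr3:138143369-138143668 on the minus strand, that of Apom chr17:35131752-35132051 on the minus strand, that of Selenop chr15:3270727-3271026 on the plus strand (the most downstream of its starts), that of Afp chr5:90490464-90490763 on the plus strand and that of Apoc2 chr7:19677892-19678191 on the minus strand.

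Of Apom, Mttp and Selenop, 0 of 3 held a GATA, HNF1 or HNF4 word in these windows and 2 of 3 a FOXA word, at base -185 of Mttp and -24 of the third Selenop start. Of the other 6 members, 3 held a GATA word (Apoa1, Apoc2 and the third start of Apoe), 3 the HNF1 word (Afp, Apoc2 and the same Apoe start), 3 an HNF4 word (Afp, Apoa4 and Apob) and 4 a FOXA word. Afp held an HNF4 word at -148, the HNF1 word at -105 and a FOXA word at -55, and Apoc2 the HNF1 word at -89 and a GATA word at -19. These counts are per member over all its starts, whereas the shares over all promoters are per single window. Apoe and Selenop, with 3 starts each, thus had more chances to match. A match describes letters and not binding, and sites outside the window were not searched.

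The transcription factors of these pathways were compared with the members. Of 24 regulators of liver and visceral endoderm genes compared, 10 were higher and 3 lower on day 2 (median log2 ratio 0.54). Over all genes compared, 11.0% were higher and 10.1% lower (median -0.05). The overexpressed Gata6 is among the 10. Hnf4a, a nuclear receptor that drives apolipoprotein genes in liver, read 19.4, 181.3 and 424.8 on the 3 days. Foxa2 read 10.7, 1400.9 and 2258.6, and Foxa1 50.1, 275.6 and 110. Gata4 read 23.1, 1545.4 and 2748.2. All 4 were under the background line on day 0 and above it on day 1, the day on which, of the members, Mttp alone was at least 2-fold higher. The SoxF factors were bright on both days, Sox17 at 5.9, 7585.6 and 12077.4 and Sox7 at 54.9, 1500.5 and 1959.6. Cebpa, a liver factor, read 56.2, 207.9 and 159.2, the sterol regulator Srebf2 995.1, 1107.1 and 2008.8, and the homeobox gene Hhex 308.2, 435.2 and 1040.1. Lower were the nuclear receptors Nr5a2 (1786.4, 853.3 and 344.1), Nr2f6 (392.5, 227 and 146.2) and Rara (268.2, 83.1 and 109.5). Over 4 probe sets each, the log2 ratio ranged between 1.00 and 2.98 for Hnf4a and between -2.49 and -0.31 for Nr5a2, and the 2 probe sets of Sox7 gave 0.14 and 5.16.

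Genes of lipoprotein assembly, export and lipid handling gave mixed results. Of 20 compared, 5 were higher and 2 lower on day 2, where 11.0% of all genes compared were higher and 10.1% lower. The median ratio was 0.32 on the log2 scale, against -0.05 over all genes compared. P4hb, the protein disulfide isomerase that forms a complex with Mttp, read 7697.8, 16685.2 and 22067.6. It was therefore already bright in ES cells and 2.87-fold higher on day 2. Surf4, a cargo receptor, read 897, 2637.7 and 4952.9, and Sec23a, a coat protein of vesicles leaving the endoplasmic reticulum, 1669.1, 3106.3 and 4507.5. The endothelial-type lipase Lipg read 62, 203.7 and 890.8, at least 14.4-fold higher on day 2 than on day 0, and the fatty acid binding protein Fabp3 2081.1, 7567.6 and 22685.3. For Lipg the log2 ratio ranged between 1.01 and 3.84 over 3 probe sets, and for Fabp3 between 1.35 and 3.45 over 2. Lower on day 2 were Pltp, the phospholipid transfer protein (1591.8, 1773.1 and 562.4), and Apobec1, the enzyme that edits Apob mRNA (372.7, 164.9 and 12). Sar1b, Dgat1 and Dgat2 were within 2-fold, and Mia2 and Tm6sf2 stayed under the background line on each array.

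Of 12 receptors and exporters of lipoproteins compared, 5 were higher and 3 lower on day 2. The shares over all genes compared were 11.0% and 10.1%. The endocytic receptors Cubn (5.3, 2542.1 and 20102.2) and Lrp2 (732.4, 4262.4 and 10304), and Amn, the membrane anchor of Cubn (648.4, 4211.1 and 7429.6), were highest on day 2. Cubn is known to bind Apoa1, which itself was at background. Lsr, the lipolysis-stimulated lipoprotein receptor (279.3, 1013.9 and 1683.6), and Vldlr, which takes up Apoe-bearing particles (161.7, 281.4 and 372.8), were also higher. Sorl1, Lrp1 and the cholesterol exporter Abcg1 were 2.02-fold to 3.53-fold lower. These calls use the brightest probe set of each gene, and several were not shared by the others. On the log2 scale the ratio ranged between 0.14 and 4.13 over the 3 probe sets of Lrp2, between 0 and 1.20 over the 6 of Vldlr and between -2.39 and -0.64 over the 3 of Sorl1. The 2 probe sets of Lsr gave 0.22 and 2.59 and those of Lrp1 -1.41 and -0.40, while those of Abcg1 had opposite signs, -1.02 and 0.71.

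The other apolipoproteins gave few differences: of 12 compared, 0 were higher and 1, Apod, was lower (256.9, 79.1 and 14.2). Its 2 probe sets gave log2 ratios of -2.25 and 0. Clu was within 2-fold on its brightest probe set, but ranged between -2.08 and -0.34 over its 4. Of 18 further plasma proteins compared, 5 were higher and 4 lower on day 2 (median log2 ratio -0.35). For both groups, the shares over all genes compared were 11.0% higher and 10.1% lower. Igf2, the fetal growth factor, read 770.4, 2692.3 and 4915.6, with log2 ratios of 0.05 and 2.67 on its 2 probe sets. Fgb, a fibrinogen chain, read 4.4, 26.2 and 337.9, at least 6.25-fold higher on day 2 than on day 0, whereas its partners were not: Fga stayed under the floor and Fgg read 171.9, 32.3 and 11.7. The protease inhibitor A2m, 1326.9, 334.7 and 176, was 7.54-fold lower on day 2. Serping1, the C1 inhibitor, was 2.54-fold higher, F5 and Serpinf2 at least 2.10-fold and at least 2.02-fold, and Pzp and Fetub were lower. The second probe set of F5 gave a log2 ratio of -0.02. Alb, the neighbour of Afp, read 66.2, 8 and 11.8 and so stayed under the background line with it. Rbp4, the retinol carrier that travels bound to Ttr, read 196.9, 89.1 and 149.3 and was not at least 2-fold higher on day 2.

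Selenop was set beside other genes of selenium use. Of 29 compared, 8 were higher and 0 lower on day 2, that is 27.6% higher (median log2 ratio 0.30). All genes compared had 11.0% higher and 10.1% lower. The glutathione peroxidases Gpx2 (125.2, 471.8 and 2108.3) and Gpx3 (338.3, 1228.3 and 2870.2) and the selenoprotein Selenon (63.3, 309.2 and 564) had the widest ratios, 16.8-fold, 8.48-fold and at least 8.91-fold above day 0. Each of these 3 was already higher on day 1, when Selenop was not. Selenok, Selenos, Selenom, Selenoo and Selenow were 2.88-fold to 4.43-fold higher on day 2. The genes that make selenocysteine and insert it did not share this: Sephs2 read 4165.8, 3312.4 and 3558.9, Secisbp2 948.2, 1155.7 and 859.9, and Eefsec 1072.9, 701.7 and 784.1. Lrp8, a receptor for Selenop, read 138.7, 207.6 and 208.9.

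Of 10 thyroid hormone and retinol genes compared, 2 were higher and 2 lower on day 2. Over all genes compared, 11.0% were higher and 10.1% lower. With so few genes, these counts lie near those shares. Rdh10, a retinol dehydrogenase, read 206.3, 390.4 and 1235.4, and the aromatic amino acid and thyroid hormone transporter Slc16a10 65.4, 43.2 and 190.6, with log2 ratios between 0.21 and 1.54 over 4 probe sets. Crabp1 (500, 79.9 and 15.8) and the thyroid hormone binding protein Crym (404.4, 81.6 and 47.6) were lower.

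**Figure D4:**
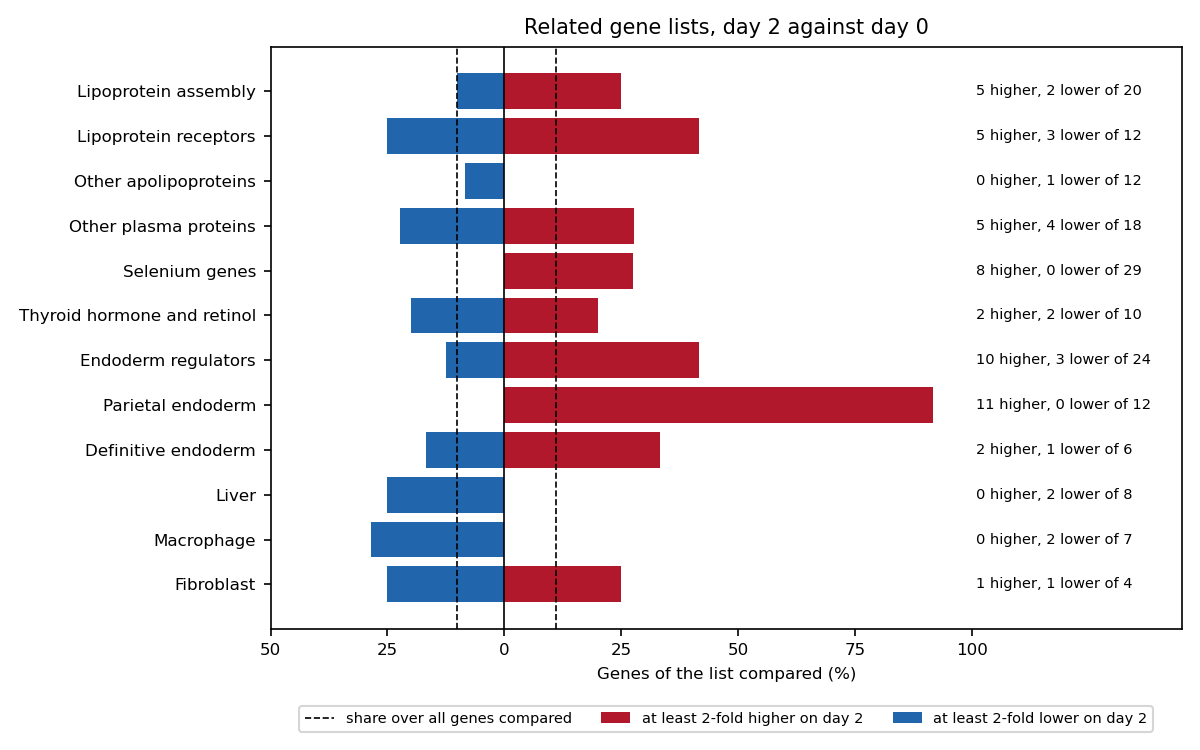
Share of the compared genes of each related list that were at least 2-fold higher (red, to the right) or lower (blue, to the left) on day 2 against day 0, with the counts at the right. Dashed lines give the shares over all genes compared, 11.0% higher and 10.1% lower. Parietal endoderm markers stand at 11 of 12 higher, selenium genes at 8 of 29 with 0 lower, and other apolipoproteins at 0 of 12 higher.

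Because these plasma proteins are also made by other cells, markers of those cells were read on the same arrays. Of 12 parietal endoderm markers, genes of the sister layer that lays down basement membrane, 11 were higher and 0 lower on day 2 (median log2 ratio 4.01), among them Pth1r (43.3, 443.7 and 4409.6), Nostrin (9.7, 1707.5 and 2633.3) and Lamb1 (548.1, 18250.5 and 23295). Their summed signal was 12022.9, 84358.8 and 155424 on the 3 days. Of 14 liver markers, 7 passed the background line on at least 1 array, where 28.3% of all genes stayed at or under it throughout. Of the 8 compared, 0 were higher and 2, Fah and Cps1, lower on day 2. All genes compared had 11.0% higher and 10.1% lower. The summed signal of the liver markers was 1071.0, 733.7 and 630.0. Of 12 definitive endoderm markers, 5 passed the line. Foxa2 and Tmprss2 were higher and Trh lower on day 2, of 6 compared. Over the 4 probe sets of Tmprss2 the log2 ratio ranged between 0 and 2.70. Eomes (555.3, 715.7 and 611.5) and Pyy (164, 224 and 199.3) were above the line on each array and within 2-fold. Cer1, Gsc and Cxcr4 were under the floor on each array, and the sum was 2981.2, 2641.9 and 3693.4. Of 10 fibroblast markers, 5 passed the line. Twist1 was higher and Thy1 lower on day 2, of 4 compared. Col1a2 (84.8, 67.5 and 82.6), Fbln5 (109.2, 111.1 and 54.7) and Pdgfrb (43.6, 93.2 and 41.7) passed the line but were not called on day 2 against day 0. Col1a1, Col3a1 and Postn were under the floor on each array, and the sum was 749.8, 534.3 and 500.2. The part of these cells in the member signals was not tested, and in bulk RNA more cells of a type and more RNA per cell cannot be told apart.

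The genes with profiles most like those of the 4 higher members were sought among 18183 genes that are not members. They were ranked by their widest difference in floored log2 signal on any of the 3 arrays, smallest first. For Ttr the nearest was S100g, a calcium-binding protein (13.2, 26.3 and 3999.2; widest difference 0.34), followed by Cldn6 at 1.45 and Nxf7 at 1.58. For Selenop it was Cldn7 (176.7, 142.2 and 1764.9; 0.69), with Cldn6 at 1.06 and S100g at 1.17. For Mttp it was Tfec (4.6, 206.8 and 1095.9; 0.24), with Tgfbr3 at 0.28 and Pla2g12b at 0.30. For Apom it was Cdcp1 (82.4, 103.5 and 389.1; 0.16), with Adcy6 and Crtc3 at 0.34. Within 0.5 on the log2 scale lay 30 genes for Apom, 9 for Mttp, 1 for Ttr and 0 for Selenop. Likeness over 3 arrays includes the level of the probe sets and says nothing about function.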

How the data were processed

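Total RNA of 3 mouse ES cell samples was hybridised, as biotinylated cRNA, to 1 Affymetrix array each. The deposited values are linear signal intensity, 1 per probe set; the submitters' processing notes name MAS5 without a version. Their 2% trimmed means were 497.5, 497.6 and 497.7, so the arrays had been scaled alike, and no detection calls came with them. Scaling of this kind takes total signal to be equal on all days. No genome build applies to the array values.

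The table held 45101 probe sets, 64 of them controls. Of the rest, 34945 were annotated to 1 gene, 932 to several and 9160 to none; 34741 matched a RefSeq gene by identifier, for names and gene order only. Arrays were rescaled to 1 trimmed mean, values under the 40th percentile set to that floor, and log2 taken. A gene was represented by its probe set of highest mean log2 value. Printed signals are the deposited ones, and folds use the scaled, floored ones. The calling code was tested on simulated data. Alternatives changed the floor, scaling, probe set rule and threshold (Python 3.11.15, limma 3.58.1 for cyclic loess).

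The members, lists and rules were chosen with earlier results of these data known. Named genes were all 10 members, of each list up to 3 with the widest day 2 against day 0 ratio among those called higher or lower, every regulator counted as higher or lower, and the 3 nearest profiles; other genes are examples chosen after their values were seen.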

Additional observations from a re-analysis of the deposited data

How the results depend on the processing

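With 1 array per day there is no replicate to leave out, and no paired analysis was possible because each day has a single array. The 4 members higher in day 2 against day 0, and the 4 in day 2 against day 1, numbered 4 to 6 under the alternatives tried. The day 1 count of 1 became 2 on lowering the floor to the 25th percentile, where Ttr joined Mttp (at 1.39 on the log2 scale, from an _x_at probe set). It became 0 on raising the floor to the 60th, where Mttp stood at 0.75. The 5th and 6th genes of day 2 were Apoa4 and Apoc2, under the lower floor (log2 ratios of 1.71 and 1.28 against day 0) or with a pseudocount of 32 (1.20 for Apoa4 against day 0). Members at background numbered 4, 5 with unspecific probe sets left out or with the line at the receptors' 99th percentile, and 1 with the line at the floor. Of 300 member ratios under the alternatives, 291 kept their call, 8 passed the threshold newly, 1 lost it and 0 changed sign after a call. Among the lists in day 2 against day 0, the other apolipoproteins had 0 higher and 1 lower, but 3 higher and 3 lower under the lower floor; the other plasma proteins had 5 higher and 4 lower, but 3 and 1 under the higher floor; the receptors had 3 lower, but 1 with means over probe sets. With a 3-fold threshold, assembly genes higher were 3, not 5. In all, 107 of 720 list counts moved by over 1.5 times. Signals near the floor limit what can be said of Afp, Apoa1, Apoa4, Apob and Apoc2.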
